A study of Mus musculus with 6 samples.

Results

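The Id genes Id1, Id2 and Id3 and the E protein genes Tcf3, Tcf4 and Tcf12 were examined in common myeloid progenitors that lacked the Gata2 -77 enhancer. The members were taken as the rows whose Ensembl identifiers carry these mouse symbols, and all 6 were found among the 24815 identifiers listed per library. RNA sequencing covered 3 libraries of -77 mutant cells (C, D and Q), homozygous for the deletion (-77-/-), and 3 libraries of WT cells (A, F and L). Both genotypes were C57BL/6 embryos at E13.5, a midgestation stage when the liver is the main blood-forming organ. Fetal liver cells of either genotype were sorted as negative for lineage markers including CD41 and CD48, negative for Sca-1, positive for CD34 and c-Kit, and low for Fc receptor. Whether each library is its own embryo or pool of embryos is not stated, so the p-values reflect the scatter among these 6 libraries, which may be technical.

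E proteins are helix-loop-helix transcription factors that pair with each other or with tissue-restricted partners and bind the E-box, a short DNA motif written CANNTG. Id proteins carry the same dimerization domain but lack the basic region that contacts DNA, so an E protein bound to an Id protein cannot bind an E-box. In blood, E proteins drive B and T cell development, Id proteins restrain them, and in erythroid and megakaryocyte precursors an E protein pairs with SCL (the product of Tal1) in a complex with LMO2, LDB1 and a GATA factor. The symbols Tcf3 and Tcf4 are also used informally for members of the TCF/LEF family, which are different genes and were not counted here.

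In mm10, with positions from the GENCODE M21 annotation, Id1 (ENSMUSG00000042745) lies at chr2:152736251-152737410 on the plus strand, Id2 (ENSMUSG00000020644) at chr12:25093799-25097140 on the minus strand and Id3 (ENSMUSG00000007872) at chr4:136143497-136145755 on the plus strand. Tcf3 (ENSMUSG00000020167) lies at chr10:80409514-80433647 on the minus strand and Tcf12 (ENSMUSG00000032228) at chr9:71842688-72111871 on the minus strand. The Id genes are compact. The files list 1 transcript each for Id2 and Id3 and 2 for Id1, against 12 for Tcf3, 7 for Tcf4 and 11 for Tcf12, and all transcripts of a gene were summed.

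Promoter sequence is shown for a member of each family that carries an E-box in the 250 bases before its RefSeq start (GRCm38.p6), because this is the motif on which the 2 families act. RefSeq promoters were matched for 4 members, Id2, Id3, Tcf3 and Tcf12. Sequences run 5′ to 3′ on the gene's strand, stop at the first base of any annotated exon, and have each match to CANNTG in capitals. The stretches are chr12:25096254-25096342 for Id2 and chr10:80433648-80433885 for Tcf3, both on the minus strand. The Tcf3 stretch ends directly before the annotated gene. The Id2 stretch lies within the annotated span of Id2, downstream of its annotated 5′ end and outside its annotated exons.
Id2: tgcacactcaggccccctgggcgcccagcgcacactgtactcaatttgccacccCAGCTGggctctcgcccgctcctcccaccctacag
Tcf3: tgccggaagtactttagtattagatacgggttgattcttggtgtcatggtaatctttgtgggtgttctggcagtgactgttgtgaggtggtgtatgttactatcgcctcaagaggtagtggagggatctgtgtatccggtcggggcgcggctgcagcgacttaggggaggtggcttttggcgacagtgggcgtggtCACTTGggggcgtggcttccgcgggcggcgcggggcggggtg
The E-box of Id2 begins at position -196 and that of Tcf3 at -54 from the start. Tcf12 has 3 RefSeq starts, of which 2 have 1 E-box each, and Id3 has none in this window. CANNTG reads the same on both strands and occurs in 66.2% of the 32851 RefSeq promoter windows of this length, so a match in a single promoter is common. The letters GATAA, the core bound by GATA factors, and their reverse complement TTATC were found in none of these windows of Id2, Id3, Tcf3 and Tcf12, and occur in 22.6% of all windows. A match or its absence describes these letters in this window and says nothing of binding.

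Libraries held 14473913 to 30596279 expected counts, the read counts that RSEM estimates per gene. Mutant C stood apart from the other 5 libraries: its count-weighted mean gene length was 1781 bases, against 3000 and 2834 bases in mutants D and Q and 2958 to 3124 bases in WT. TPM, which is corrected for gene length and scaled to the same total in every library, had a median in mutant C that was lower than the WT mean by 1.21 on the log2 scale over 12222 genes, against -0.04 and -0.20 in mutants D and Q. Values without mutant C are given beside those of all libraries. The enhancer's own gene, Gata2, had 1.85, 9.92 and 9.58 TPM in mutants C, D and Q, against 53.1, 34.6 and 37.9 TPM in WT A, F and L. Its log2 change was -2.20 with all libraries (standard error 0.30, edgeR adjusted p = 0.068), and it was -1.97 when mutant C was left out (adjusted p = 0.0019). The gate's progenitor transcripts were present: Cd34 stood at 323, 752 and 687 TPM in mutants C, D and Q and 585 to 654 TPM in WT, and Kit at 12.5, 106 and 87.4 TPM in the mutants and 113 to 136 TPM in WT. Cd48 transcripts, whose protein the gate selected against, stood at 201 to 251 TPM in the mutants and 169 to 186 TPM in WT.

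None of the 6 members passed the test between genotypes. By edgeR's quasi-likelihood test with Benjamini-Hochberg adjustment over all 12222 genes, 0 of 6 had an adjusted p under 0.05, beside 0.155% of all genes tested. DESeq2 and limma-voom also called 0 of 6, beside 0.729% and 0.262% of the genes each tested. At an unadjusted p under 0.05 edgeR passed 1 of 6, Id1, which was higher in the mutant. At that p stood 4.8% of all genes, and 1.71% were higher in the mutant. Id1 no longer passed an unadjusted 0.05 when any of WT A, F or L was left out, on the TPM scale, or with a gene length offset over all libraries. Without mutant C edgeR called 0 of 6, where 0.84% of 12614 genes were called. Id1 was again the only member under an unadjusted 0.05, beside 10.4% of all genes at that p and 4.34% higher in the mutant.

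Among the Id genes, Id1, the most abundant of the 3 in every library, had the largest fitted change. Id1 stood at 40.03, 52.1 and 54.0 TPM in mutants C, D and Q, against 48.1, 31.0 and 43.0 TPM in WT A, F and L. On this scale the groups overlapped, with mutant C below WT A and L. In CPM (counts scaled to library size with TMM, not corrected for length) Id1 had 56.2, 24.9 and 29.0 in mutants C, D and Q, and 20.2, 14.7 and 20.9 in WT A, F and L. Every mutant library was then above every WT library, as in 10.6% of all genes tested. The log2 change of Id1 was 0.97 (95% interval 0.14 to 1.801, adjusted p = 0.58 by edgeR), or 1.96-fold. Without mutant C it was 0.52 (95% interval 0.16 to 0.89, adjusted p = 0.29 by edgeR), or 1.44-fold. The change was thus smaller without mutant C and kept its sign. Id1 is a direct target of BMP signalling and is known in blood cells, endothelium and liver. The 11 hepatoblast markers summed to 104, 96.0 and 546 TPM in mutants C, D and Q and to 112, 61.9 and 40.6 TPM in WT A, F and L, with none of the 11 at 0 in every library. The 9 endothelial markers summed to 195 to 279 TPM in the mutants and 266 to 267 TPM in WT, of which Egfl7, also a gene of blood progenitors, gave 176 to 224 TPM and 199 to 208 TPM, while Cdh5, the endothelial cadherin gene, was at 0.07 to 0.49 TPM and 0.33 to 0.45 TPM. Pecam1 stood at 7.5 to 29.39 TPM in the mutants and 33.97 to 37.13 TPM in WT. Tek stood at 0.78 to 3.95 TPM and 5.88 to 6.96 TPM, and Kdr at 0.04 to 0.55 TPM and 0.65 to 1.0 TPM. Pecam1, Tek and Kdr thus had mutant values below WT without overlap, as in 24.0% of all genes tested. Tie1, Emcn, Lyve1 and Stab2 overlapped. The part of the hepatoblast and endothelial markers in the level of Id1 was not tested. In bulk samples, fewer cells of a type and less RNA per cell cannot be told apart.

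**Figure D1:**
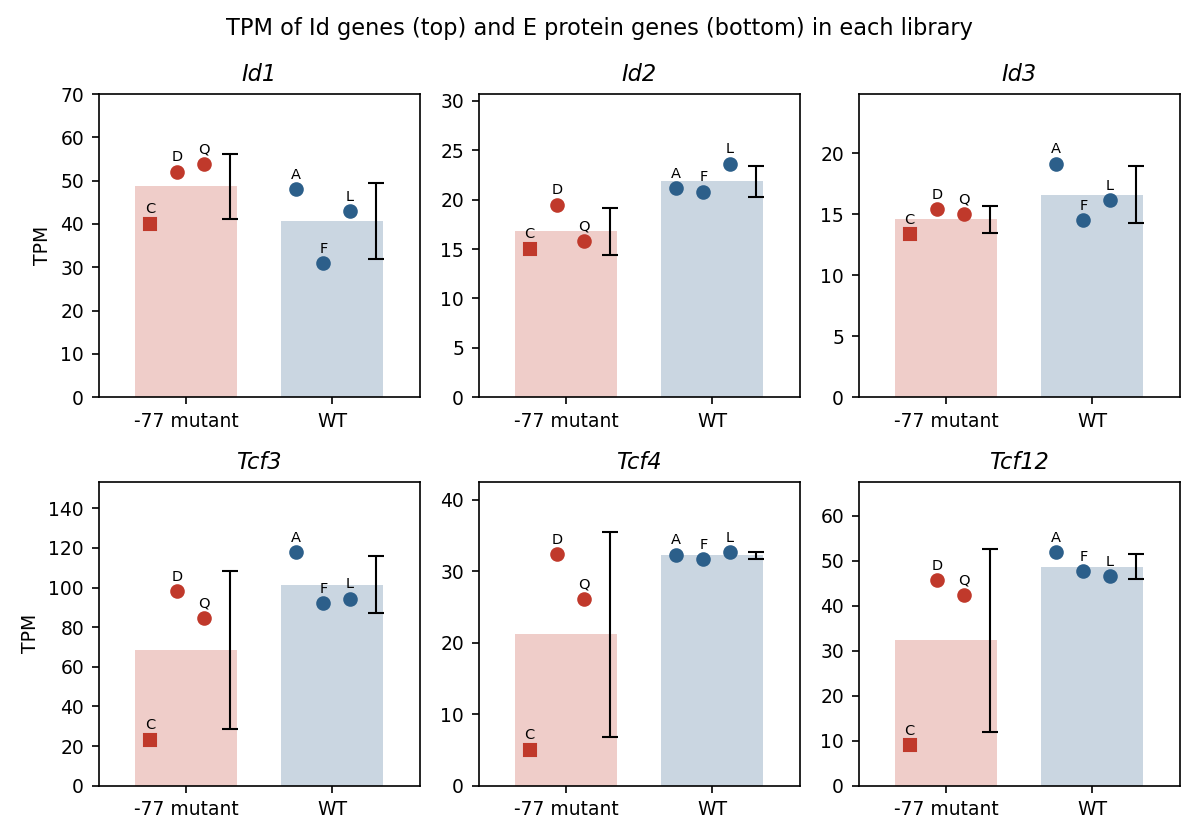
Each panel plots TPM of 1 gene, with points for libraries (letters; square, mutant C), shaded bars for the mean and black bars for the SD (n = 3 per group), -77 mutant at left and WT at right. Id genes (top) lie between 13.4 and 54.0 TPM in all libraries, while mutant C is far below the other 5 for Tcf3, Tcf4 and Tcf12 (23.2, 5.05 and 8.94 TPM).

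Id2, which in adult blood is required for natural killer and other innate lymphoid cells, had 15.04, 19.5 and 15.9 TPM in mutants C, D and Q, against 21.1, 20.8 and 23.7 TPM in WT A, F and L. Every mutant library was below every WT library in TPM, as in 24.0% of all genes tested. In CPM Id2 had 29.0, 12.8 and 11.7 in mutants C, D and Q, against 12.2, 13.6 and 15.7 in WT, so the groups overlapped and mutant C was the highest library. The log2 change was 0.35 with all libraries (95% interval -0.55 to 1.25) and -0.18 without mutant C (95% interval -0.51 to 0.14), with adjusted p of 0.63 and 0.67 by edgeR. The direction of Id2 therefore turned with mutant C. It also turned with the scale: on log2(TPM + 1) the change was -0.37, where the median of all genes was -0.50.

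Id3, which acts in lymphocyte development, was the least abundant Id gene in every library. It had 13.4, 15.4 and 15.1 TPM in mutants C, D and Q and 19.2, 14.5 and 16.2 TPM in WT A, F and L, with overlapping groups. The log2 change was 0.57 with all libraries (95% interval -0.35 to 1.48) and 0.01 without mutant C (95% interval -0.30 to 0.33), with adjusted p of 0.58 and 0.98 by edgeR. On log2(TPM + 1) it was -0.17. The fourth Id gene, Id4, was listed at 0 TPM in all 6 libraries.

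Among the E proteins, Tcf3, which encodes the E2A proteins needed for B cell commitment, was the most abundant member in 5 of 6 libraries. It had 23.2, 98.1 and 84.5 TPM in mutants C, D and Q, against 118, 92.1 and 94.5 TPM in WT A, F and L. Mutant C was far below the rest, mutant D lay inside the WT range and mutant Q below it. In CPM Tcf3 averaged 117 ± 21.9 in the mutant and 129 ± 6.26 in WT (SD, n = 3 each). Its log2 change was -0.15 (95% interval -0.60 to 0.31, adjusted p = 0.67 by edgeR). Leaving out mutant C gave -0.01 (95% interval -0.20 to 0.18, adjusted p = 0.98). Changes below 0.871-fold or above 1.13-fold lie outside that last interval.

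Tcf12, which encodes HEB, an E protein prominent in thymocytes, had 8.94, 45.6 and 42.3 TPM in mutants C, D and Q, against 51.9, 47.7 and 46.5 TPM in WT. Every mutant library was below every WT library in TPM, again as in 24.0% of all genes, although mutant D was within 1 TPM of WT L. In CPM Tcf12 had 51.3, 100.96 and 102.7 in mutants C, D and Q and 97.3, 104.3 and 103.2 in WT, with overlapping groups. Its log2 change was -0.26 (95% interval -0.94 to 0.42, adjusted p = 0.63 by edgeR). Leaving out mutant C gave -0.0040 (95% interval 0.888-fold to 1.12-fold, adjusted p = 0.99).

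Tcf4 (ENSMUSG00000053477, chr18:69343356-69689079 on the plus strand) is the E protein gene required for plasmacytoid dendritic cells. It had 5.05, 32.4 and 26.1 TPM in mutants C, D and Q, against 32.3, 31.7 and 32.7 TPM in WT, with mutant D inside the WT range. Its log2 change was -0.26 (95% interval -0.94 to 0.42, adjusted p = 0.63 by edgeR). Leaving out mutant C gave -0.01 (95% interval 0.884-fold to 1.12-fold, adjusted p = 0.97). Siglech, a surface marker of plasmacytoid dendritic cells, was at 0.86 to 1.55 TPM in the mutant and 0.91 to 1.44 TPM in WT. The 10 markers of that cell type summed to 148 to 285 TPM in the mutant and 221 to 264 TPM in WT, most of it from Bst2 and Irf8, which other myeloid cells also express, while Klk1 was at 0 in every library.

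**Figure D2:**
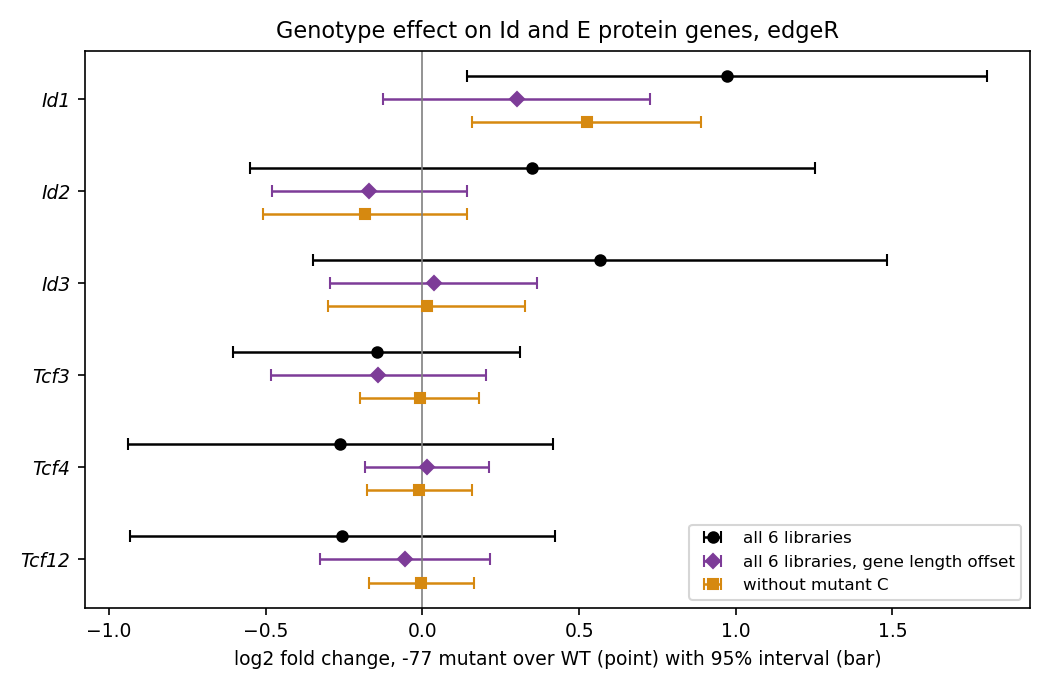
The plot gives log2 fold change of -77 mutant over WT on the horizontal axis for each gene (points) with 95% intervals (bars) from edgeR, for all 6 libraries, all 6 with a gene length offset, and without mutant C. Intervals of Tcf3, Tcf4 and Tcf12 without mutant C lie within -0.20 to 0.18, and that of Id1 runs from 0.16 to 0.89.

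The 2 families lay on opposite sides of the WT mean in mutant C, which also differed from WT by gene length. Mutant C had Id1, Id2 and Id3 at 302%, 209% and 247% of the WT mean in CPM, and Tcf3, Tcf4 and Tcf12 at 71.0%, 50.1% and 50.5%. The Id genes average 936 to 1278 bases in the files and the E protein genes 2549 to 4859 bases. Over all genes tested, split into 10 equal bins of gene length, the median difference of mutant C from the WT mean of log2 CPM was 1.73 in the shortest bin and -1.40 in the longest. Id1 differed by 1.61, where the median of its bin was 1.73. Id2 and Id3 differed by 1.07 and 1.297, where the median of their bin was 1.09. Tcf4 differed by -0.99 and the median of its bin was -0.99, while Tcf12 differed by -0.98 against -0.66. Tcf3 differed by -0.49, where its bin had a median of 0.05 and reached from -1.04 (10th percentile) to 0.86 (90th percentile). In mutants D and Q the E protein genes were within 0.04 of the WT mean, and Id1 was above it by 0.44 and 0.65. The median of the bin of Id1 was 0.05 in mutant D and 0.20 in mutant Q. In mutant Q the median of the longest bin was -0.14.

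**Figure D3:**
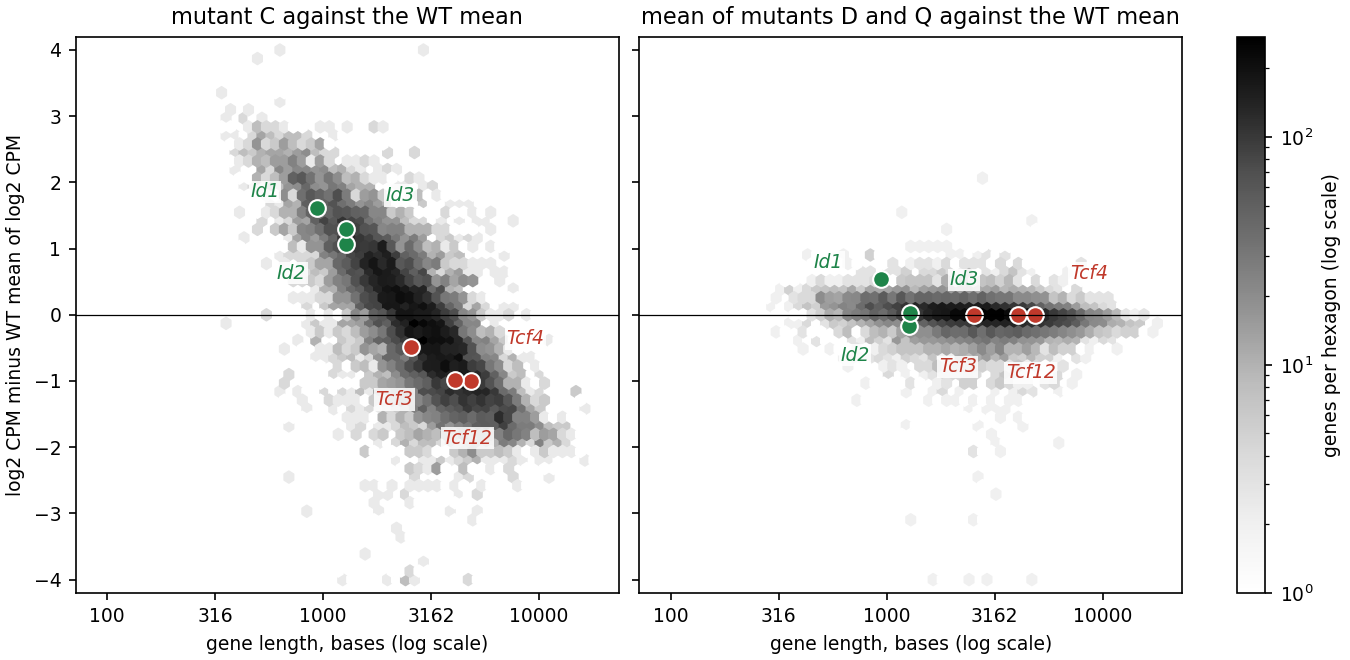
Gene length in bases (horizontal, log scale) is plotted against log2 CPM minus the WT mean (vertical, values beyond 4 drawn at 4) for mutant C at left and the mean of mutants D and Q at right, with all genes as grey hexagons, Id genes in green and E protein genes in red. In mutant C log2 CPM falls with gene length over all genes, Tcf3 (-0.49) lies below the median of its length bin (0.05), and in the mean of D and Q Id1 is the member farthest from 0.

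When a smooth trend on gene length was removed from each library before edgeR's test, all 6 libraries gave log2 changes of 0.30 for Id1, -0.17 for Id2 and 0.04 for Id3, with adjusted p of 0.53, 0.57 and 0.91. The same fit gave -0.14 for Tcf3, 0.01 for Tcf4 and -0.06 for Tcf12, with adjusted p of 0.64, 0.94 and 0.82. The offset fit called 0 of 6, beside 0.442% of all genes. With this offset, Gata2 stayed lower, with a log2 change of -2.09 (adjusted p = 0.010 by edgeR). With the offset and without mutant C, Id1 had a log2 change of 0.41 (95% interval 0.049 to 0.78, adjusted p = 0.39 by edgeR).

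TPM is corrected for gene length, so levels of different genes can be ordered within a library. This correction does not remove a trend with gene length that differs between libraries. In mutant C, Tcf3, Tcf4 and Tcf12 stood at 0.228, 0.157 and 0.184 times the WT mean TPM. Id1, Id2 and Id3 stood there at 0.984, 0.688 and 0.803 times the WT mean. In WT the means were 101.5 ± 14.2 TPM for Tcf3, 48.7 ± 2.84 for Tcf12, 40.7 ± 8.78 for Id1, 32.2 ± 0.497 for Tcf4, 21.9 ± 1.56 for Id2 and 16.6 ± 2.36 for Id3 (SD, n = 3). Tcf3 was above every other member in all WT libraries and in mutants D and Q. Tcf12 was above Tcf4 and Id2 above Id3 in 6 of 6 libraries. Neighbouring levels of Tcf12 and Id1 in WT differed by less than the SD of Id1, and Id1 and Tcf4 exchanged places in WT F. In mutants D and Q, Id1 came directly after Tcf3, with 1.14 and 1.28 times the TPM of Tcf12, against 0.927, 0.650 and 0.925 times in WT A, F and L. In mutant Q the length bins of Id1 and Tcf12 had median differences from the WT mean of log2 CPM of 0.20 and -0.06. In mutant D these medians were 0.05 and -0.00015. In mutant C, where long genes were low, Id1 was the highest member and Tcf4 the lowest.

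Summed TPM of the Id genes was 68.4, 87.0 and 84.9 in mutants C, D and Q, against 88.4, 66.3 and 82.8 in WT A, F and L. Summed TPM of the E protein genes was 37.1, 176 and 153 in mutants C, D and Q, against 202, 172 and 174 in WT. The ratio of Id to E protein TPM was 1.84, 0.494 and 0.555 in mutants C, D and Q, and 0.437, 0.387 and 0.477 in WT A, F and L. All 3 mutant ratios were above all 3 WT ratios, with mutant D close to WT L, and in CPM the groups overlapped. No share over ratios of other genes was computed. The ratio sets genes averaging 936 to 1278 bases over genes averaging 2549 to 4859 bases, so a trend with gene length also moves it. Medians of log2 CPM against WT in the shortest and longest bins were 1.73 and -1.40 in mutant C. They were 0.20 and -0.14 in mutant Q, and -0.13 and 0.04 in WT A. The part of gene length in the ratio was not tested. The mean log2 ratio was higher in the mutant by 0.88 with all libraries and by 0.28 without mutant C. No test was made of this score over chosen genes.

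Within the Id family, Id1 made up 58.5%, 59.9% and 63.6% of summed Id TPM in mutants C, D and Q, against 54.4%, 46.7% and 51.9% in WT A, F and L. The share of Id2 was 22.0%, 22.4% and 18.7% in the mutants and 23.9%, 31.4% and 28.6% in WT. The share of Id3 was 19.51%, 17.7% and 17.7% in the mutants and 21.7%, 21.9% and 19.54% in WT. Mutant shares lay above the WT shares for Id1 and below them for Id2 and Id3, including in mutant C. These shares are parts of the same sum, so a higher share of Id1 goes with lower shares of the others. No share over all genes was computed for this comparison. Within the E protein family, Tcf3 made up 55.7% and 55.3% in mutants D and Q and 53.7% to 58.3% in WT, with 62.3% in mutant C.

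**Figure D4:**
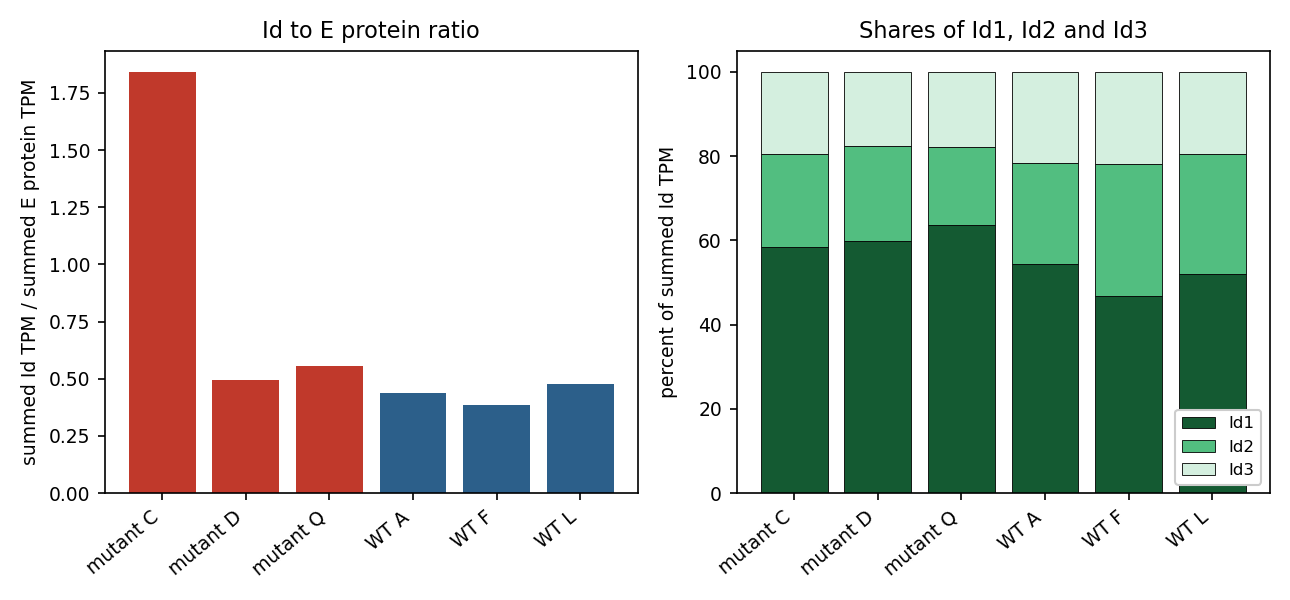
At left, bars give the ratio of summed Id TPM to summed E protein TPM in each library (-77 mutant red, WT blue), and at right stacked bars give the percent of summed Id TPM from Id1, Id2 and Id3. The ratio reaches 1.84 in mutant C while the other libraries span 0.387 to 0.555, and Id1 takes 58.5% to 63.6% in the mutants and 46.7% to 54.4% in WT.

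The length column also carries a trace of isoform use, since RSEM weights the lengths of a gene's transcripts by their abundance. Tcf12 averaged 3713, 4193 and 4116 bases in mutants C, D and Q, against 4041, 4178 and 4156 bases in WT A, F and L. Tcf4 ranged from 4708 to 5031 bases in the mutant and from 4590 to 5002 bases in WT, so the libraries overlapped. Single isoforms were not analysed here.

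Across the 6 libraries, log2 CPM of Tcf4 and Tcf12 had a Pearson r of 0.997 with each other, and Id3 had an r of -0.99 with each of them. Without mutant C these values were 0.71, -0.76 with Tcf4 and -0.52 with Tcf12, over 5 libraries. Of the genes with a mean of at least 50 counts, those most like Id1 over 6 libraries were Nr0b2, a nuclear receptor corepressor gene, and Mthfd2, a mitochondrial folate enzyme gene (r of 0.99 each, and 0.98 and 0.97 without mutant C). Those most like Id2 were Gstk1 and Smco4 (0.99 each, and 0.94 without mutant C), and those most like Id3 were Scnm1 and Aes (0.999 each, and 0.97 without mutant C). Tcf3 was nearest to Arhgef1 and Cpsf1 (0.9985 each, and 0.99 and 0.98 without mutant C), Tcf4 to Fam102b and Smarcd1 (0.9997 and 0.9995, and 0.98 and 0.97) and Tcf12 to Ccnk and Mpdz (0.9995 and 0.9987, and 0.93 and 0.96). These are descriptions over few libraries, chosen as the highest of many, and shared depth and gene length enter them.

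Other genes of the helix-loop-helix pathway were read in 5 lists. Among 14 helix-loop-helix partners only Tal1, Lyl1 and Ascl2 passed the filter on low counts. Of these 3, edgeR and limma-voom called 0, and DESeq2 called 0 of the 8 partners it tested. By edgeR 1 of 3 (Tal1) had an unadjusted p under 0.05, beside 4.8% of all genes. The median log2 change was -0.19, beside -0.02 over all genes. Tal1, which encodes the E protein partner SCL, had 38.1, 61.9 and 57.2 CPM in mutants C, D and Q, against 77.0, 83.7 and 76.3 CPM in WT A, F and L. Every mutant library was below every WT library, as in 11.4% of all genes. Its log2 change was -0.59 (standard error 0.21, adjusted p = 0.58 by edgeR) and -0.42 without mutant C (standard error 0.08, adjusted p = 0.090), where DESeq2 called it (adjusted p = 0.0058, beside 1.72% of genes). Lyl1, a close relative of Tal1, had a log2 change of 0.08 (adjusted p = 0.79 by edgeR).

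Of 20 genes for the SCL complex and E protein cofactors, 19 were tested and edgeR called 0 with all libraries, with 2 at an unadjusted p under 0.05 (4.8% of all genes were) and 0 called by DESeq2 or limma-voom. When mutant C was left out edgeR called 1, Gfi1b, beside 0.84% of all genes. Gfi1b, a repressor gene of erythroid and megakaryocyte cells, had 4.96, 9.47 and 11.5 CPM in mutants C, D and Q, against 18.5, 17.9 and 20.8 CPM in WT. Its log2 change was -0.86 without mutant C (adjusted p = 0.035 by edgeR) and -1.12 with all libraries (adjusted p = 0.58). DESeq2 without mutant C called 2, Gfi1b and Lmo4, beside 1.72% of all genes. Lmo4, a LIM domain gene, had a log2 change of -0.60 (adjusted p = 0.012 by DESeq2), and edgeR did not call it (adjusted p = 0.17). Marker levels of related lineages were untested. The 7 megakaryocyte markers summed to 16.8 to 52.9 TPM in the mutants and 89.3 to 103 TPM in WT. The 7 mast cell and basophil markers summed to 11.1 to 11.5 TPM in the mutants and 131 to 160 TPM in WT. Most of that WT sum came from Cpa3 (90.0 to 97.96 TPM) and Hdc (26.6 to 55.2 TPM). Mcpt8 overlapped, at 2.63 to 3.97 TPM in the mutants and 2.33 to 3.32 TPM in WT. Gzmb was at 0 in every library, and Fcer1a and Prss34 were at most at 0.22 TPM. The 10 erythroid markers summed to 870 to 2275 TPM in the mutants and 1387 to 2670 TPM in WT. Most of this sum came from the globin genes Hbb-bs, Hbb-bt, Hba-a1 and Hba-a2, whose groups overlapped. Klf1 was at 0.94 to 1.38 TPM in the mutants and 8.61 to 12.8 TPM in WT. Epor was at 0.24 to 0.61 TPM and 4.19 to 7.87 TPM, and Car1 at 0 to 0.12 TPM and 8.79 to 11.6 TPM. The part of these marker levels in Tal1 and Gfi1b was not tested. The scaffold genes of the complex, Ldb1 and Lmo2, had log2 changes of -0.02 and 0.47 with all libraries and -0.09 and 0.10 without mutant C, and were named after their values were seen. The list's median was -0.12, and -0.04 without mutant C.

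BMP signalling induces Id genes in many cells. Of 28 genes for BMP and TGF-beta signalling, 22 were tested and edgeR called 0, with 0 at an unadjusted p under 0.05 and 0 called by DESeq2 or limma-voom. The list mixes receptor, ligand and SMAD genes with inhibitors such as Skil, so its median has no single meaning for signalling. The list's median was -0.28 with all libraries and -0.06 without mutant C, where 3 had an unadjusted p under 0.05, beside 10.4% of all genes. Those with the smallest p with all libraries were Tgfbr2, a TGF-beta receptor gene, the ligand gene Tgfb1 and Skil, a SMAD corepressor gene, with log2 changes of -0.49, -0.57 and -0.51 (adjusted p = 0.58 each by edgeR). The ligand genes Bmp2, Bmp4, Bmp6 and Bmp7 were below the filter, at up to 0.17 TPM.

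Of 30 lymphoid genes that E proteins are known to activate, 18 were tested and edgeR called 0, with 3 (Ccr9, Cdkn1a and Tcf7) at an unadjusted p under 0.05, beside 4.8% of all genes, and 0 called by DESeq2 or limma-voom. The median was -0.22 with all libraries and -0.07 without mutant C. Ccr9, a chemokine receptor gene of thymus-homing cells, had 4.52, 2.73 and 5.39 CPM in mutants C, D and Q, against 5.37, 10.97 and 8.52 CPM in WT, with overlapping groups and a log2 change of -0.97 (adjusted p = 0.58 by edgeR). Cdkn1a, a cell cycle inhibitor gene, had a log2 change of 0.50 and Gfi1, a repressor gene of granulocyte and lymphoid cells, of -0.55 (unadjusted p = 0.040 and 0.054, adjusted p = 0.58 each by edgeR). Tcf7, a T cell factor gene named after its values were seen, had 0.771, 1.34 and 1.61 CPM in mutants C, D and Q, against 1.99, 2.84 and 2.13 CPM in WT. Every mutant library was below every WT library, as in 11.4% of all genes tested. The log2 change of Tcf7 was -0.84 (adjusted p = 0.58 by edgeR), at a mean of 36.3 counts. The 12 genes below the filter include Pax5, Cd79a and Cd3e, with Cd3e at 0 TPM in every library. All 10 genes for turnover of Id proteins were tested and edgeR called 0, with 0 at an unadjusted p under 0.05, 0 called by DESeq2 or limma-voom and a median of -0.01. Their smallest p belonged to Anapc11, Anapc4 and Cdc20, with log2 changes of 0.64, 0.24 and 0.19, and Anapc11 had -0.0041 without mutant C.

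**Figure D5:**
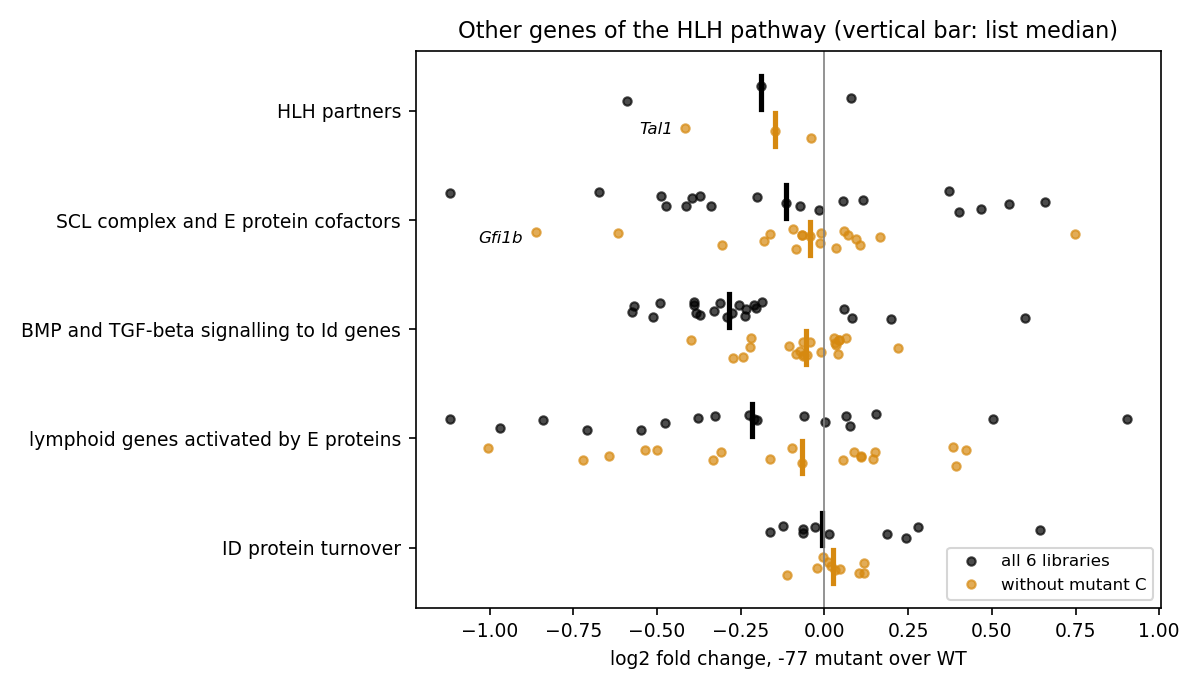
Each point is the log2 fold change of -77 mutant over WT (horizontal) of a gene in 1 of 5 lists (rows), for all 6 libraries (black) and without mutant C (orange), with vertical bars at list medians. Without mutant C the medians lie between -0.15 and 0.02, and Gfi1b (-0.86) is the gene past the edgeR threshold.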

How the data were processed

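Expected counts and TPM per gene were deposited by the authors for 6 libraries, per the file headers, with TPM corrected for gene length and set to a common library total. Tools listed in the submitters' processing notes are Bowtie 1.1.1, RSEM 1.2.18 and CASAVA 1.8.2, with build mm10. Strandedness, read layout and the annotation's release are not given here. Symbols were matched for 24448 of 24815 identifiers. The deposited gene length column (bases, per the file headers) was averaged over libraries. Counts were rounded, filtered with filterByExpr (minimum count 10), scaled by TMM and compared, -77 mutant with WT, by the quasi-likelihood F test of edgeR 4.0.16 in R 4.3.3, with Benjamini-Hochberg adjustment over all genes and a threshold of 0.05. Intervals are 95% and standard errors are the absolute log2 change over the square root of F. Alternatives used DESeq2 1.42.0, limma 3.58.1 (voom, and log2 TPM with a pseudocount of 1 or 0.1), RLE scaling, no filter, left-out libraries, and a length offset (lowess, span 0.3, on log2 length). Log2 CPM used a prior count of 2. The code was tested on simulated data that held no deviant library and no trend with gene length. That test therefore does not cover a library such as mutant C. Members and lists were chosen with earlier results of these data known. Genes named in a list are those called by edgeR or otherwise the 3 smallest p at a mean of at least 50 counts; genes most like a member are the 2 highest Pearson r with an informative symbol. Expected counts can split reads between overlapping genes.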

Additional observations from a re-analysis of the deposited data

How the results depend on the processing

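No paired analysis was possible because the replicate letters differ between the groups. No member was called under any of the 15 alternatives, with adjusted p from 0.151 to 0.999 over the 6 members. Id1 kept its direction in 15 of 15 (0.26 to 1.19). Id2 turned under 6 alternatives: -0.37 and -0.39 on log2(TPM + 1) and log2(TPM + 0.1), -0.17 with the length offset, -0.17 by DESeq2 without mutant C, -0.25 with the length offset without mutant C, and from -0.18 to 0.59 with 1 library left out. Id3 turned to -0.17 and -0.18 on those TPM scales and to -0.059 with the length offset without mutant C. The TPM medians of all genes were -0.50 and -0.63, and relative to them Id2 and Id3 stayed above 0. By DESeq2 without mutant C, Tcf3, Tcf4 and Tcf12 turned to 0.0011, 0.00096 and 0.0076. Tcf4 turned to 0.015 with the length offset, and Tcf4 and Tcf12 to 0.038 and 0.035 with it and without mutant C. Genes called over all genes numbered 19 in the reported fit, 36 without the filter, 124 by DESeq2, 32 by limma-voom, 11 on log2(TPM + 0.1), 54 with the length offset, 243 by DESeq2 without mutant C and 113 with the length offset without mutant C. With 1 library left out, edgeR called from 0 to 106, the highest without mutant C and 0 without any of mutants D and Q and WT A, F and L. DESeq2 without mutant C called 1 helix-loop-helix partner (Tal1) and 2 genes of the SCL complex and cofactors (Gfi1b and Lmo4), and the length offset without mutant C called 1 of the SCL list (Gfi1b). With 1 library left out, that list gave from 0 to 1. The causes were not tested beyond the construction of each alternative. The difference in log2 Id to E ratio was 0.88, 0.86 in CPM and 0.28 to 1.23 with 1 library left out. Counts of 151 to 935 reads per library lie behind the Id genes and 358 to 4050 behind the E protein genes. By edgeR without mutant C, standard errors were 0.13 to 0.16 for the Id genes and 0.07 to 0.08 for the E protein genes. With the length offset over all libraries, that of Tcf3 (0.144) was above those of Id2 (0.131) and Id3 (0.139).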
